A study of Mus musculus with 12 samples.

Results

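The 8 genes described here encode the cytokine IL-10 (Il10), the chains of its receptor (Il10ra and Il10rb), the transcription factor that the receptor activates (Stat3), and 4 inhibitors that cytokine receptors induce against themselves (Socs1, Socs2, Socs3 and Cish). They were chosen by symbol, through the Ensembl gene IDs of the deposited count tables, and are 8 of the 49585 gene IDs of the liver tables and 8 of the 55401 of the macrophage tables. The study sequenced polyA RNA from C57BL/6 mice in 12 libraries. The liver groups were LPS-treated liver (LPS for 2 h, 3 libraries) and untreated liver (titled WT in the labels, 3 libraries). LPS is lipopolysaccharide, the bacterial cell wall component sensed by Toll-like receptor 4. The peritoneal macrophage groups were shGm26917 (a lentivirus with a hairpin RNA against the long noncoding RNA Gm26917 for 72 h, then LPS for 2 h, 3 libraries) and shNC (the same with a control hairpin, 3 libraries). Both macrophage groups thus carried lentivirus and LPS, and no macrophage group here went without LPS. In the macrophages Gm26917 itself was not analysed here, so the hairpin's effect on its target has no check here. The labels name 1 hairpin per macrophage group, and the liver libraries hold all cells of the tissue. The labels do not say whether libraries of a group came from separate animals or cultures, so the p-values measure only the spread between these libraries, which may be technical.

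IL-10 is made by macrophages and other leukocytes after they sense microbes, and it limits their output of inflammatory cytokines. It binds IL-10RA, which is largely restricted to leukocytes, and the widely expressed IL-10RB, which other cytokines of the family also use. The kinases JAK1 and TYK2 then phosphorylate STAT3. SOCS3 is a STAT3 target that blocks receptors of the IL-6 family through gp130, but it leaves IL-10 signalling largely intact. SOCS1 restrains interferon signalling, and CIS (the product of Cish) and SOCS2 restrain receptors that act through STAT5, such as the growth hormone receptor in liver. All SOCS proteins bind phosphotyrosine through an SH2 domain and recruit a ubiquitin ligase through their SOCS box.

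Gene counts summed to between 17322770 and 20913964 per liver library and to between 15605311 and 18062853 per macrophage library. Values below are CPM, read counts divided by library size, which edgeR's TMM method scaled within each tissue, and a gene was called when its Benjamini-Hochberg adjusted p from edgeR's quasi-likelihood test over all tested genes was below 0.05. Hepatocyte markers summed to between 65500 and 102000 CPM in LPS liver and to between 84000 and 128000 CPM in untreated liver, against at most 0.356 CPM in shGm26917 macrophages and 0.469 CPM in shNC macrophages. Macrophage markers, Cd14 among them, summed to between 18800 and 27300 CPM in shGm26917 macrophages and to between 12800 and 21600 CPM in shNC macrophages. The library shNC replicate 2 stood apart from the other shNC libraries: without it 2715 genes were higher and 2521 lower in shGm26917 macrophages, against 1618 and 1431 with all 6 libraries. For genes whose results changed most without it, values without it are given as well.

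All 8 genes were called higher in LPS liver, and for each of them every LPS library lay above every untreated library. Il10 reached the cutoff of the filter on low counts in LPS liver only, so it could enter the test only as a gene high there; the other 7 reached the cutoff in libraries of both groups. Among all 13869 genes tested in liver, 23.3% were called higher, 45.3% were called in either direction, 29.4% had LPS libraries that all lay above the untreated ones, and 57.8% had groups that did not overlap in either direction. The median log2 fold change of the 8 genes was 3.06, or 2.54 without Il10, beside -0.06 for all tested genes. In bulk tissue, more cells of a type and more RNA per cell cannot be told apart.

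**Figure D1:**
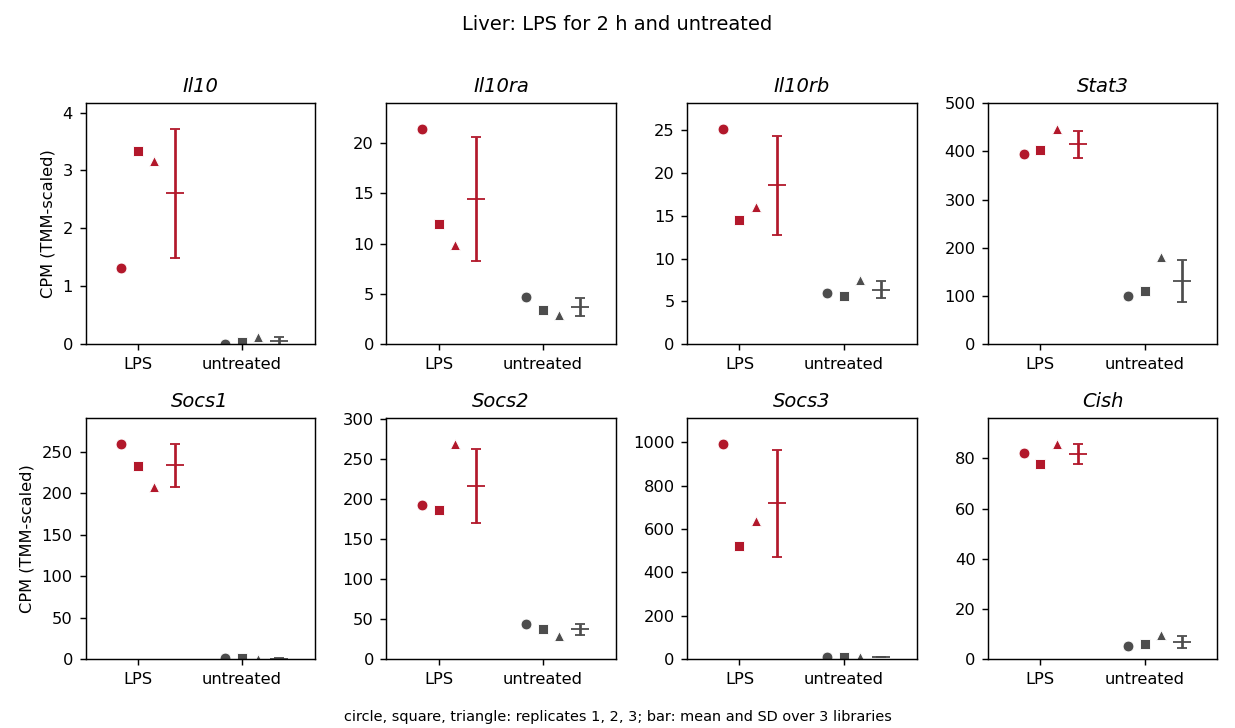
Level of each of the 8 genes in the 6 liver libraries, in TMM-scaled CPM on a linear axis that starts at 0, with the LPS libraries to the left of the untreated libraries and the mean and SD of each group (n = 3). In all 8 panels the lowest LPS library lies above the highest untreated library.

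Il10 (ENSMUSG00000016529; chromosome 1, 131019845 to 131024974 in GRCm38, plus strand) had 1.32, 3.33 and 3.16 CPM in LPS liver, against 0, 0.0463 and 0.13 CPM in untreated liver. These levels stood for 21, 60 and 50 reads in the LPS libraries and for 0, 1 and 3 reads in the untreated ones. LPS replicate 1 had the lowest level of its group, and the groups did not overlap. The fitted log2 fold change of Il10 was 5.30 ± 0.73 (SE, adjusted p = 0.000634), a 39.4-fold difference. It was 6.46, or 88-fold, without untreated replicate 3, which held 3 of the 4 untreated reads. Il10 passed the filter on low counts (0.515 CPM) in 3 LPS libraries and in 0 untreated libraries, so its p-value is no independent sign of its direction.

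Both receptor chains rose as well. Il10ra (ENSMUSG00000032089; chromosome 9, 45253837 to 45269149, minus strand) had 21.4, 11.9 and 9.87 CPM in LPS liver, against 4.73, 3.38 and 2.95 CPM in untreated liver. Its log2 fold change was 1.96 ± 0.34 (SE, adjusted p = 0.00195), or 3.9-fold. Il10rb (ENSMUSG00000022969; chromosome 16, 91406164 to 91425834, plus strand) had 25.2, 14.5 and 16.1 CPM in LPS liver, against 5.96, 5.65 and 7.55 CPM in untreated liver. This was a log2 fold change of 1.54 ± 0.26 (SE, adjusted p = 0.00174), or 2.9-fold. LPS replicate 1 was the highest library for both chains, the reverse of its place for Il10.

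Stat3 (ENSMUSG00000004040; chromosome 11, 100885098 to 100939540, minus strand) had 395, 403 and 447 CPM in LPS liver, against 100, 111 and 181 CPM in untreated liver. Untreated replicate 3 was the highest of its group and still lay below every LPS library. The log2 fold change was 1.67 ± 0.27 (SE, adjusted p = 0.00137), or 3.18-fold. Stat3 shares 72 exon bases with Stat5a on the opposite strand, and the sources used here do not say whether counting used strand. Il10rb shares 569 exon bases with Gm21970 on the same strand. Cish shares 261 with Gm17040 and 479 with Gm17041, both on the opposite strand. How reads in these shared bases were counted is not given either.

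Socs1 and Socs3 had the largest fold changes of the 8. Socs1 (ENSMUSG00000038037; chromosome 16, 10782240 to 10785536, minus strand) had 260, 233 and 208 CPM in LPS liver, against 0.728, 0.695 and 0.347 CPM in untreated liver. The untreated libraries held 16, 15 and 8 reads of Socs1, whereas the LPS libraries held between 3284 and 4199. Socs1 had a log2 fold change of 8.62 ± 0.34 (SE, adjusted p = 1.52e-06), or 393-fold, and 19 of the 13869 tested genes had a larger log2 fold change. Socs3 (ENSMUSG00000053113; chromosome 11, 117966079 to 117970047, minus strand), the most abundant of the 8 in LPS liver, had 994, 523 and 637 CPM there, against 10.3, 9.41 and 11.2 CPM in untreated liver. The untreated libraries were within 2 CPM of each other, while LPS replicate 1 stood clear of the other LPS libraries. The log2 fold change of Socs3 was 6.12 ± 0.34 (SE, adjusted p = 6.29e-06), and 108 tested genes had a larger one.

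Both STAT5-linked inhibitors also rose in LPS liver. Cish (ENSMUSG00000032578; chromosome 9, 107296026 to 107302784, plus strand) had 82.1, 77.8 and 85.8 CPM in LPS liver, against 5.05, 6.07 and 9.47 CPM in untreated liver. Its LPS libraries lay close together, with an SD of 3.99 CPM around a mean of 81.9 CPM. Cish had a log2 fold change of 3.58 ± 0.26 (SE, adjusted p = 1.81e-05), or 11.9-fold. Socs2 (ENSMUSG00000020027; chromosome 10, 95385362 to 95417180, minus strand) had 192, 186 and 269 CPM in LPS liver, against 44, 37.8 and 29.4 CPM in untreated liver. LPS replicate 3 was its highest library, whereas LPS replicate 1 was the highest for Socs1 and Socs3. The log2 fold change of Socs2 was 2.54 ± 0.25 (SE, adjusted p = 9.16e-05), or 5.82-fold.

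Markers of several other cell types differed between the liver groups, read against the 23.3% of all tested genes called higher. Neutrophil markers summed to between 225 and 316 CPM in LPS liver and to between 3.37 and 8.73 CPM in untreated liver, and 8 of the 9 tested markers were called higher, of which 5 reached the filter's cutoff only in LPS liver. The defining marker Ly6g was at 0 in untreated liver. Large peritoneal macrophage markers summed to between 241 and 279 CPM in LPS liver and to between 31.9 and 79.6 CPM in untreated liver, with 4 of 7 tested markers called higher (Gata6, Prg4, Selp and Tgfb2). Icam2, Timd4 and Ltbp1 were tested and not called. General macrophage markers summed to between 337 and 555 CPM in LPS liver and to between 121 and 152 CPM in untreated liver, with 3 of 8 called higher. Most of that sum was Cd14, the LPS co-receptor, at 263, 373 and 428 CPM in LPS liver, against 6.92, 4.17 and 6.43 CPM in untreated liver. Without Cd14 the other 7 macrophage markers summed to 74.1, 146 and 127 CPM in LPS liver, against 145, 137 and 115 CPM in untreated liver, so the groups overlapped. Of these 7, Itgam had 2.07, 2.22 and 2.47 CPM in LPS liver, against 0.455, 0.742 and 0.391 CPM in untreated liver. Fcgr1 had 8.28, 14.1 and 11.5 CPM in LPS liver, against 4.69, 3.62 and 3.99 CPM in untreated liver. The groups did not overlap for Itgam and Fcgr1, and they overlapped for Cd68 and Lyz2. Csf1r, Mertk and Adgre1 had log2 fold changes of -0.87, -0.77 and -0.51 and were not called. Kupffer cell markers summed to 159, 418 and 326 CPM in LPS liver, against 303, 347 and 273 CPM in untreated liver. Of these 8 markers 1 was called higher. The low library, LPS replicate 1, was also the lowest LPS library for Il10 but the highest for Il10ra, Il10rb, Socs1 and Socs3. T and NK cell markers summed to 11.2, 6.38 and 6.64 CPM in LPS liver, against 5.32, 6.81 and 2.91 CPM in untreated liver, so the groups overlapped, and 2 of 9 tested markers were called higher. Of 8 sinusoidal endothelial markers 3 were called higher and 3 lower, beside 22.1% of all tested genes called lower. They summed to between 191 and 220 CPM in LPS liver and to between 160 and 245 CPM in untreated liver. Of 7 tested small peritoneal macrophage and dendritic cell markers 2 were called lower. For B cells, and for stellate cells and mesothelium, 1 of 7 was. None in these last lists was called higher. The part of these cells in the rise of the 8 genes, of which Il10 and Il10ra are known mainly from leukocytes, was not tested.

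Promoter windows from RefSeq (GRCm38.p6, 250 bases before to 50 after the start site) were at hand for 4 of the 8 genes, Cish, Socs1, Socs3 and Stat3. The windows of the 3 inhibitors are shown because they hold motifs of the factors named above, and capitals mark the matches. The first window lies at chr11:117969317-117969616 (minus strand), the next at chr9:107296409-107296708 (plus strand), and the last at chr16:10785487-10785786 (minus strand).
Socs3: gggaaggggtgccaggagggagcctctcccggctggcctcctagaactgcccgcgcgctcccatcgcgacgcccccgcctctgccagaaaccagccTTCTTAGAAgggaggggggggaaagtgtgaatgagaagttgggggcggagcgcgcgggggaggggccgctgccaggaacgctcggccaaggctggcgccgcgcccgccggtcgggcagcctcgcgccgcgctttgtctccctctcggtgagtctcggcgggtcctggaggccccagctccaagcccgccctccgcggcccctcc
Cish: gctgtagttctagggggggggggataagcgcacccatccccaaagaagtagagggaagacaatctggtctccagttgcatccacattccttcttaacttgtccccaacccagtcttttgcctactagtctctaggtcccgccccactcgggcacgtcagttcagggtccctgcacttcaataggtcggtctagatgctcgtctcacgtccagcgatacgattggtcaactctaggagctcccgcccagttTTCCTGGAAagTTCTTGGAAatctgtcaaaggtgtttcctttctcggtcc
Socs1: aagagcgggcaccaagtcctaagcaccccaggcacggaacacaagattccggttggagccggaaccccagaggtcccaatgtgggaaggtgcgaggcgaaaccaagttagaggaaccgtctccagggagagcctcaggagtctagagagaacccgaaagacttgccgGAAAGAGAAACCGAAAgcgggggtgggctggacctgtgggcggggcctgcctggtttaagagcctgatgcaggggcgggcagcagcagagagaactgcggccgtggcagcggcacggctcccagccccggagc
The STAT element TTCNNNGAA reads the same on both strands and was present in 8.3% of the 32851 RefSeq promoter windows. Socs3 held 1 copy, with its first base at -154 from the start site of its window, and Cish held 2 copies, with first bases at 0 and 11. The Socs3 and Cish windows lie inside the gene loci given above, so their start sites are not the outermost annotated ones. The final bases of the Socs3 window were not found unbroken in any GENCODE M21 transcript of the gene. Those of the Cish, Socs1 and Stat3 windows were. The Socs1 and Stat3 windows held no match to these letters. In Socs1 the letters GAAA, any 2 bases and GAAA again, a form of the interferon-stimulated response element chosen after the data were seen and searched on both strands, occurred in 2 overlapping copies with first bases at -83 and -77. They occurred in 3.44% of all windows. A match is a description of the sequence and not evidence that a factor bound there.

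In macrophages 3 of the 8 genes were lower with the Gm26917 hairpin and none was called higher. Il10, Socs1 and Socs3 fell, and for each of them every shGm26917 library lay below every shNC library. Among the 12876 genes tested in macrophages, 11.1% were called lower, 23.7% were called in either direction, 21.7% had shGm26917 libraries that all lay below the shNC ones, and 45.9% had groups that did not overlap in either direction. The median log2 fold change of the 8 genes was -0.77, beside 0 for all tested genes. At an unadjusted p below 0.05 in edgeR, 1 of the 8 genes was higher (Socs2), and DESeq2 also called that 1 gene higher.

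**Figure D2:**
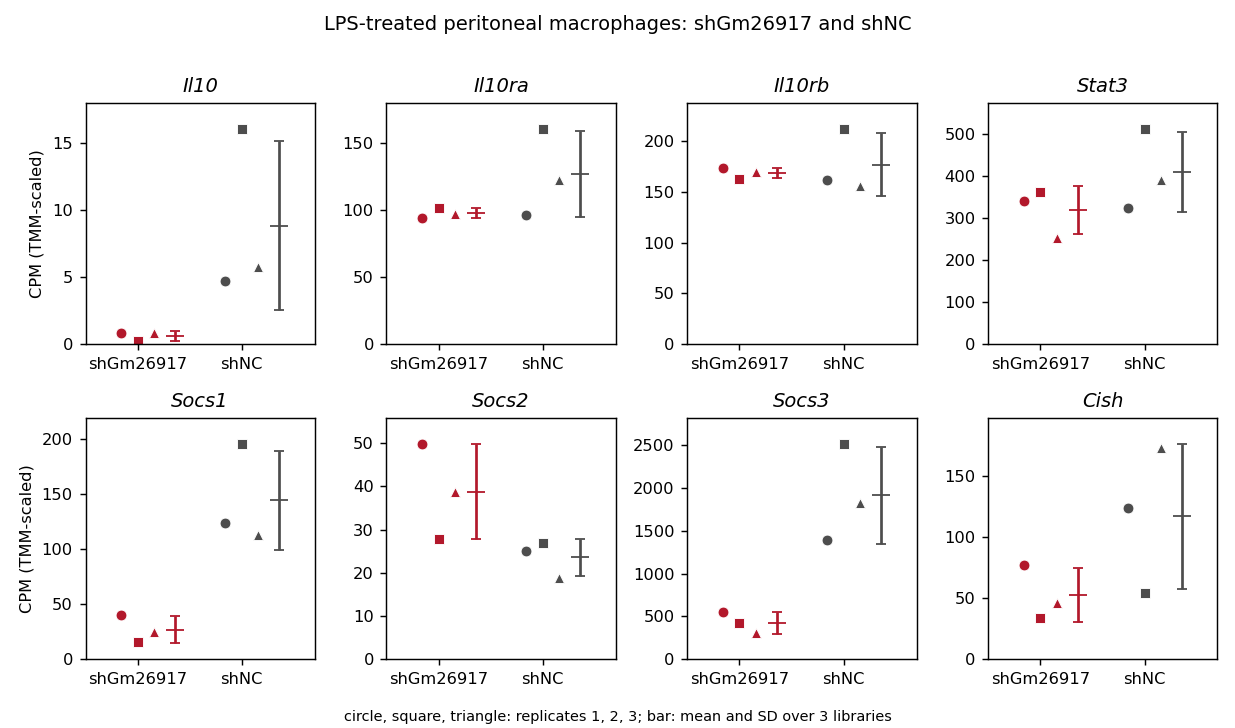
Level of each of the 8 genes in the 6 macrophage libraries, in TMM-scaled CPM on a linear axis that starts at 0, with the shGm26917 libraries to the left of the shNC libraries and the mean and SD of each group (n = 3). The groups do not overlap for Il10, Socs1 and Socs3, where shGm26917 is lower, and for Socs2, where it is higher.

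Il10 had 0.865, 0.219 and 0.85 CPM in shGm26917 macrophages, against 4.69, 16.1 and 5.74 CPM in shNC macrophages. These levels stood for 17, 4 and 15 reads in the shGm26917 libraries and for 70, 238 and 85 reads in the shNC libraries. shNC replicate 2 was far above the other shNC libraries, and shGm26917 replicate 2 was the lowest of all 6. The log2 fold change was -3.76 ± 0.68 (SE, adjusted p = 0.0122), or 13.5-fold lower. Without shNC replicate 2 Il10 was 8.06-fold lower (log2 fold change -3.01), and without shGm26917 replicate 3 the adjusted p was 0.0533 at a log2 fold change of -3.99.

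The receptor chains and Stat3 were not called. Il10ra had 94.3, 102 and 97.3 CPM in shGm26917 macrophages, against 96.9, 161 and 123 CPM in shNC macrophages. Its log2 fold change was -0.38, with a 95% confidence interval of -0.83 to 0.08 (adjusted p = 0.193), and the groups overlapped. Il10rb had 173, 163 and 169 CPM in shGm26917 macrophages, against 162, 212 and 156 CPM in shNC macrophages. The difference came to a log2 fold change of -0.07, with an interval of -0.43 to 0.29 (adjusted p = 0.762), and its sign turned to 0.22 when libraries were scaled by their totals and to 0.07 without shNC replicate 2. Stat3 had 341, 362 and 254 CPM in shGm26917 macrophages, against 325, 513 and 390 CPM in shNC macrophages. For Stat3 the log2 fold change was -0.36, with an interval of -0.88 to 0.16 (adjusted p = 0.274), and the groups overlapped. shNC replicate 2 was the highest library for all 3 genes.

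Socs3 and Socs1, the inhibitors of IL-6 family and interferon signalling, both fell. Socs3 had 551, 416 and 300 CPM in shGm26917 macrophages, against 1390, 2520 and 1830 CPM in shNC macrophages. Its log2 fold change was -2.18 ± 0.32 (SE, adjusted p = 0.00689), or 4.53-fold lower. Socs1 had 39.8, 15.3 and 24.6 CPM in shGm26917 macrophages, against 124, 196 and 113 CPM in shNC macrophages. Socs1 had a log2 fold change of -2.44 ± 0.39 (SE, adjusted p = 0.00884), or 5.43-fold lower. Both genes stayed below the threshold when any 1 library was left out. The adjusted p was then at most 0.0434 for Socs3 and 0.0496 for Socs1. Without shNC replicate 2, their highest library, the log2 fold changes were -1.95 for Socs3 and -2.17 for Socs1.

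Socs2 and Cish were not called. Socs2 had 49.9, 27.8 and 38.6 CPM in shGm26917 macrophages, against 25.1, 26.8 and 18.8 CPM in shNC macrophages. The groups did not overlap, though shGm26917 replicate 2 lay only just above shNC replicate 2, and 24.2% of all tested genes had shGm26917 libraries that all lay above the shNC ones. Socs2 had a log2 fold change of 0.72 ± 0.24 (SE, adjusted p = 0.0741). Socs2 was called at a log2 fold change of 0.81 without shNC replicate 2 (adjusted p = 0.0338), of 1.00 with library totals (adjusted p = 0.0246) and of 0.70 by DESeq2 (adjusted p = 0.0439).

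Cish had 77, 33.8 and 46.3 CPM in shGm26917 macrophages, against 124, 54.4 and 173 CPM in shNC macrophages. The groups overlapped, because shNC replicate 2 was the lowest shNC library for Cish while it was the highest for Il10, Il10ra, Il10rb, Stat3, Socs1, Socs2 and Socs3. For Cish the log2 fold change was -1.16 ± 0.47 (SE, adjusted p = 0.115). Cish was called at -1.52 without shNC replicate 2 (adjusted p = 0.0068) and at -1.18 by DESeq2 (adjusted p = 0.0384).

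Marker sums also differed between the macrophage libraries. B cell markers summed to 122, 297 and 212 CPM in shGm26917 macrophages, against 300, 632 and 200 CPM in shNC macrophages, where shNC replicate 2 was again the highest. None of the 6 tested B cell markers was called, and at an unadjusted p below 0.05 in edgeR the count was also 0. Stellate cell and mesothelium markers summed to between 3.23 and 4.84 CPM in shGm26917 macrophages and to between 22 and 26.1 CPM in shNC macrophages, with Lrat at 0 in both groups. None of the 3 tested markers of this list was called, and 1 was lower at an unadjusted p below 0.05 in edgeR. Neutrophil markers summed to between 626 and 753 CPM in shGm26917 macrophages and to between 783 and 1240 CPM in shNC macrophages, with Ly6g, Retnlg and Ngp at 0 in every library. Of 5 tested neutrophil markers 1 (Mmp8) was called higher and 2 (Mmp9 and Camp) lower. Of 8 macrophage markers 3 (Csf1r, Cd68 and Lyz2) were called higher and 1 (Cd14) lower, beside 12.6% of all genes called higher and 11.1% lower. Without Cd14 the other 7 summed to 16500, 25900 and 21300 CPM in shGm26917 macrophages, against 11400, 9030 and 9420 CPM in shNC macrophages. These sums did not overlap, and Lyz2 was their largest part. The part of these cell types in the lower Il10, Socs1 and Socs3 was not tested.

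**Figure D3:**
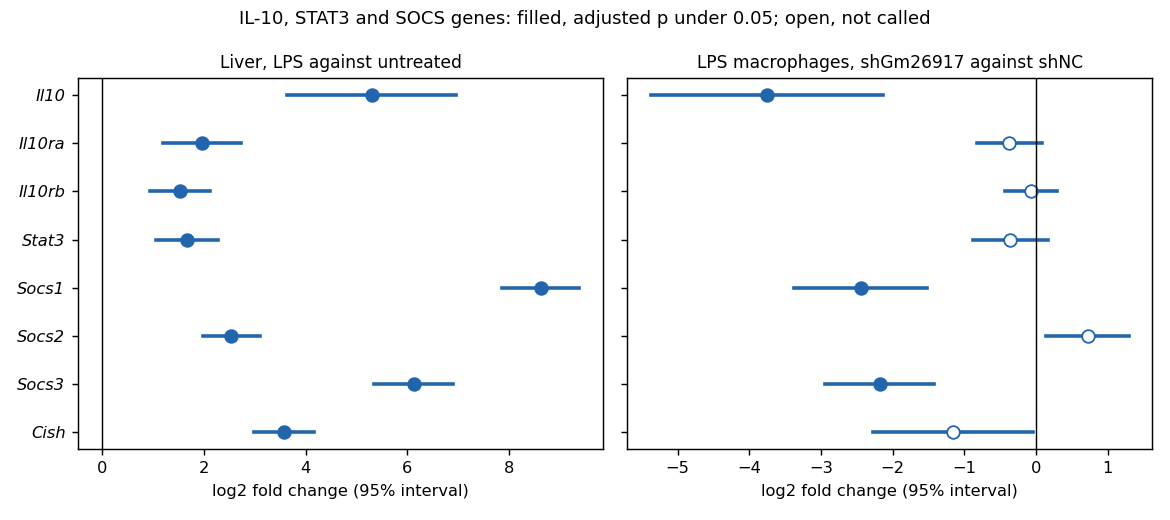
Log2 fold change of each of the 8 genes with its 95% confidence interval, for LPS against untreated liver and for shGm26917 against shNC macrophages, with filled points for adjusted p below 0.05 and a line at 0. All 8 liver intervals lie above 0; in macrophages those of Il10, Socs1, Socs3 and Cish lie below 0 and that of Socs2 lies above 0, but Cish and Socs2 had adjusted p-values of 0.115 and 0.0741.

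Divided by exon length, so that genes can be set side by side, levels followed a different order in each group. In LPS liver Socs3 led with 248 ± 85.1 CPM per kb, followed by Socs1 with 80.3 ± 8.96 and Stat3 with 43.6 ± 2.95 CPM per kb (SD, n = 3). In untreated liver Stat3 led with 13.7 ± 4.61 CPM per kb, while Socs3 stood at 3.56 ± 0.31 and Socs1 at 0.203 ± 0.0726 CPM per kb. Socs1 was thus next to last in untreated liver and next to first in LPS liver. Il10 was last in both, with 1.99 ± 0.853 CPM per kb in LPS liver and 0.0449 ± 0.0504 CPM per kb in untreated liver. The ranges over libraries of Il10rb and Il10ra overlapped in LPS liver, and those of Socs2 and Socs3, and of Cish and Il10ra, overlapped in untreated liver.

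Socs3 also led in both macrophage groups, with 146 ± 43.5 CPM per kb in shGm26917 and 662 ± 198 CPM per kb in shNC macrophages (SD, n = 3). Socs1 stood at 9.13 ± 4.26 CPM per kb in shGm26917 macrophages, below Il10rb, Stat3 and Il10ra, and at 49.6 ± 15.5 CPM per kb in shNC macrophages, where its range overlapped that of Il10rb. Il10ra reached 28 ± 1.09 CPM per kb in shGm26917 and 36.3 ± 9.28 CPM per kb in shNC macrophages, beside 4.12 ± 1.77 CPM per kb in LPS liver, although the liver and macrophage tables were scaled separately. Il10 was last in shGm26917 macrophages with 0.492 ± 0.282 CPM per kb, and in shNC macrophages its 6.75 ± 4.81 CPM per kb overlapped Cish and lay above Socs2 at 2.47 ± 0.445 CPM per kb. Neighbours in the order also overlapped for Stat3 and Il10ra and for Socs1 and Cish in shGm26917 macrophages. The same held for Il10rb, Stat3 and Il10ra in shNC macrophages. With the longest transcript as length, Il10 overlapped Socs2 in shNC macrophages.

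**Figure D4:**
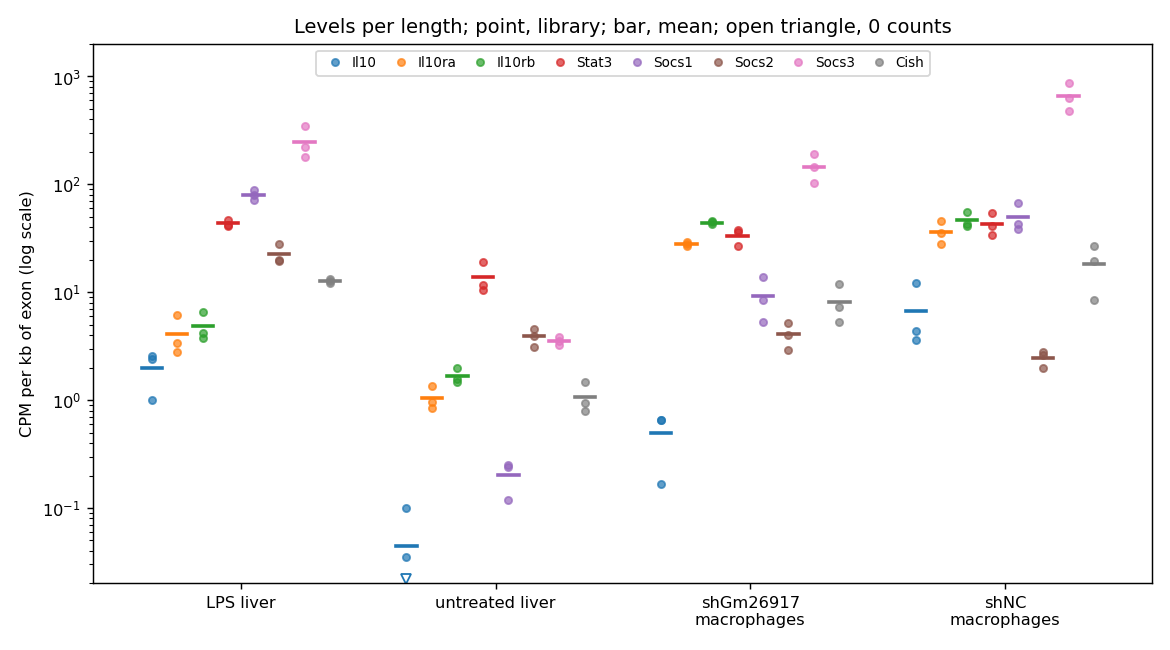
Level per exon length of each gene in the 4 groups, in TMM-scaled CPM per kb on a log axis, with 1 point per library, a bar at the mean of 3, an open triangle for 0 counts, and each tissue scaled alone. Socs3 is the highest gene in LPS liver and in both macrophage groups, whereas Stat3 is the highest in untreated liver.

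The genes whose log2 CPM over the 6 liver libraries followed Socs3 most closely were Relb (Pearson r = 0.9999), Cldn14 (r = 0.9997) and Sele (r = 0.9996). For Il10 they were Slc39a1 (r = 0.9993), Irf2 (r = 0.9977) and Ube2l6 (r = 0.9972). These are descriptions over 6 libraries that share the 2 liver groups, and 1515 genes had r above 0.95 with Socs3 and 812 with Il10.

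Further genes of the pathway were counted from 8 lists, read against the 23.3% of genes called higher and 22.1% called lower in liver, and the 12.6% called higher and 11.1% called lower in macrophages. Median log2 fold changes in liver, beside -0.06 for all genes, were 2.45 for the rest of the IL-10 family, 2.22 for JAK kinases and other STATs, 1.22 for other STAT3 cytokines and receptors, 2.19 for IL-10 and STAT3 response genes and 0.53 for STAT5 receptors and targets. They were -0.13 for other brakes on JAK-STAT signalling, 0.65 for SOCS box partners and 0.11 for Il10 regulators, the last turning to -0.31 with library totals. In macrophages, beside 0 for all genes, the medians were -3.61, -0.48, -1.91, -0.75, 0.11, -0.18, -0.14 and -0.70 in the same order of lists. Library totals turned those of other brakes and SOCS box partners to 0.11 and 0.15, and a filter of 1 CPM, or leaving out Ghr, turned that of STAT5 receptors and targets to -0.06. The median of -3.61 for the rest of the IL-10 family came from 2 tested genes. Without Il19, which reached the filter's cutoff only in shNC macrophages, that list's median was 0.87.

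Of the JAK kinases and other STATs, 6 of 9 tested rose in LPS liver and none fell; at an unadjusted p below 0.05 in edgeR, and by DESeq2, the count of lower genes was also 0, and it was 2 with library totals. Stat2, which mediates interferon signals, averaged 422 ± 146 CPM in LPS liver and 42.8 ± 5.33 CPM in untreated liver (SD, n = 3), a log2 fold change of 3.30. The kinases Jak2 and Jak3 had 3.07 and 2.40. In macrophages 5 of the 10 tested fell and none was called higher by edgeR or DESeq2, with 1 higher at an unadjusted p below 0.05 and with library totals, and 2 without shNC replicate 2. Jak2 averaged 125 ± 8.18 CPM in shGm26917 and 582 ± 17.6 CPM in shNC macrophages (SD, n = 3), a log2 fold change of -2.22 with an adjusted p of 0.0015. Stat2 (-2.27) and Stat4 (-1.96) also fell. Both lost the call without any 1 shGm26917 library or without shNC replicate 3, when 2 genes of the list were still called, and Stat2 came to -1.52 without shNC replicate 2.

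Among the other cytokines and receptors that signal through STAT3, 6 of 12 tested rose in LPS liver and 2 fell. Csf3, which encodes the neutrophil growth factor G-CSF, averaged 21.3 ± 10.9 CPM in LPS liver and 0.168 ± 0.177 CPM in untreated liver, a fitted log2 fold change of 6.95 (8.16 without untreated replicate 2). Il6 had a log2 fold change of 6.44 (7.55 without untreated replicate 1), Osmr, the oncostatin M receptor, 4.56, and the IL-6 family cytokine Lif 4.08. Csf3, Il6 and Lif reached the filter's cutoff only in LPS liver and so could be tested only as genes high there, and without these 3 the list's median was 0.21 in place of 1.22. In macrophages 7 of 12 fell and 2 rose, with the largest falls in Il6, Csf3, Lif and Osmr. Il6 had 30.5, 13 and 26 CPM in shGm26917 macrophages, against 1770, 273 and 3710 CPM in shNC macrophages. shNC replicate 2 was thus the lowest shNC library for Il6, as for Cish and unlike Il10. The log2 fold changes were -6.37 for Il6, -6.25 for Csf3, -5.38 for Lif and -3.32 for Osmr, and without shNC replicate 3 they were -5.47 for Il6, -5.62 for Csf3 and -4.58 for Lif. Without shGm26917 replicate 2 the list had 4 lower genes, with Lif and Osmr at adjusted p-values of 0.0514 and 0.0522. Without shGm26917 replicate 3 Osmr had an adjusted p of 0.0673, while Il6 and Lif kept the call with an adjusted p that rounded to 0.05. The 2 higher calls became 0 without shGm26917 replicate 1 or 2 or shNC replicate 1 or 3, 1 without shGm26917 replicate 3, and 4 without shNC replicate 2.

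Of 17 genes known to respond to IL-10 or STAT3, 16 rose in LPS liver. Timp1, an inhibitor of metalloproteinases, averaged 29.9 ± 15.4 CPM in LPS liver and 0.105 ± 0.0272 CPM in untreated liver, a fitted log2 fold change of 8.07, but it reached the filter's cutoff only in LPS liver and so could be tested only as a gene high there. Il1rn, the natural antagonist of IL-1, had a log2 fold change of 5.40, the NF-kB cofactor Bcl3 had 4.55 and the acute phase transcription factor Cebpd had 3.51. None fell by edgeR, 1 was lower at an unadjusted p below 0.05, and 1 was called lower by DESeq2, with library totals, with no filter, with all 12 libraries in 1 fit, and without untreated replicate 1 or 3. In macrophages 6 of 16 tested fell and 1 rose. Il1rn averaged 430 ± 227 CPM in shGm26917 and 4070 ± 3170 CPM in shNC macrophages, a log2 fold change of -3.24, and Timp1 had -3.09, Ddit4, an inhibitor of the kinase mTORC1, -2.44, and Zfp36, which destabilises cytokine mRNA, -1.55. Without shGm26917 replicate 1, 2 or 3 the list had 3, 1 and 1 lower genes in that order of libraries, and Il1rn and Timp1 came to -2.41 and -2.44 without shNC replicate 2. Without shGm26917 replicate 2 Il1rn and Timp1 lost the call, with adjusted p-values of 0.0734 and 0.0623, and without shGm26917 replicate 3 both had an adjusted p of 0.084. Zfp36 was -0.92 without shNC replicate 2 and was not called without any 1 shGm26917 library or shNC replicate 3. The higher call became 0 without shGm26917 replicate 1 or 2 or shNC replicate 1 or 3, 2 without shNC replicate 2 and 3 with library totals.

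**Figure D5:**
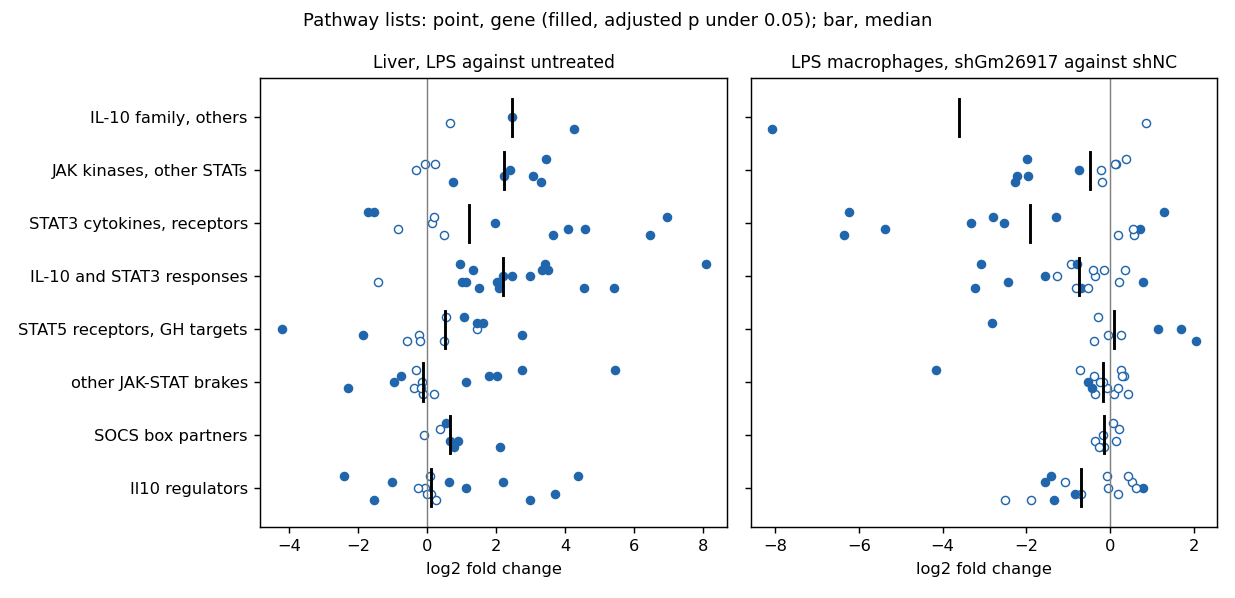
Log2 fold change of each tested gene in the 8 lists, for LPS against untreated liver and for shGm26917 against shNC macrophages, with filled points for adjusted p below 0.05, open points otherwise, bars at the list medians and a line at 0. In liver 16 of 17 IL-10 and STAT3 response genes are filled and lie above 0, and in macrophages 7 of 12 STAT3 cytokines and receptors are filled and lie below 0.

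The IL-10 family outside Il10 was mostly below the filter. In LPS liver 2 of the 3 tested genes rose, the receptor chain Il20rb with a log2 fold change of 4.24 and the interferon lambda receptor chain Ifnlr1 with 2.45, which reached the filter's cutoff only in LPS liver, and none fell by edgeR, by DESeq2 or at an unadjusted p below 0.05. Ifnlr1 was not tested under a filter of 1 CPM in 3 libraries, which left 1 call. In macrophages 1 of 2 tested genes fell: the IL-10 relative Il19 had 4 reads in all in the shGm26917 libraries and 962 in the shNC libraries, a fitted log2 fold change of -8.08 (adjusted p = 0.00425). Il19 reached the filter's cutoff only in shNC macrophages and so could be tested only as a gene high there. The count was 2 with no filter, without shGm26917 replicate 1 and without shNC replicate 1. None was called higher by edgeR or DESeq2, and 1 was higher at an unadjusted p below 0.05 and with library totals.

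Receptors and targets of the STAT5 pathway, on which Cish and Socs2 act, split between directions. In LPS liver 4 of 12 tested genes rose and 2 fell, or 2 and 4 with library totals. Il2rg, the common cytokine receptor gamma chain, had a log2 fold change of 2.76 and Csf2ra, a chain of the GM-CSF receptor, 1.62. Epor, the erythropoietin receptor, had -4.21 on 4 reads in LPS liver and 107 in untreated liver, where alone it reached the filter's cutoff, and Onecut1, a hepatocyte transcription factor, had -1.85. In macrophages 3 of 8 tested genes rose and 1 fell. Igf1, the insulin-like growth factor, averaged 127 ± 29.9 CPM in shGm26917 and 39.3 ± 11.8 CPM in shNC macrophages, a log2 fold change of 1.69, and Csf2rb, the beta chain of the GM-CSF receptor, had 1.15. The growth hormone receptor gene Ghr had 2.06 on 48 reads in shGm26917 and 9 in shNC macrophages, reached the filter's cutoff only in shGm26917 macrophages, and lost the call without any 1 library other than shNC replicate 2. Il2rb, an IL-2 receptor chain, had -2.83 (-1.80 without shNC replicate 2, when 2 genes were lower) and lost the call without any 1 shGm26917 library.

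Other brakes on JAK-STAT signalling did not move as a block. In LPS liver 5 of 15 rose and 3 fell, with 9 lower under library totals. Usp18, which blocks the type I interferon receptor, averaged 682 ± 56.4 CPM in LPS liver and 15.7 ± 6.15 CPM in untreated liver, a log2 fold change of 5.44. The phosphatases Ptpn2 and Ptpn1 had 2.76 and 2.03, and Pias3, a protein inhibitor of STAT3, had -2.30. In macrophages 3 of 15 fell, namely Usp18 (-4.17), Pias4 (-0.53) and Ptpn11 (-0.44). Usp18 came to -2.97 without shNC replicate 2, and 0 genes were lower without any 1 shGm26917 library, 1 without shNC replicate 1 or 3 and 5 by DESeq2. None was called higher by edgeR or DESeq2, 1 was higher at an unadjusted p below 0.05, and 3 were higher with library totals, which left 1 lower, or without shNC replicate 2.

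Of 7 partners of the SOCS box in its ubiquitin ligase, 5 rose in LPS liver, and none fell by edgeR, by DESeq2 or at an unadjusted p below 0.05. Ube2f, a conjugating enzyme for NEDD8, had a log2 fold change of 2.11, and the SOCS box adaptor genes Eloc and Elob had 0.89 and 0.79. Nedd8 had 0.65. The count was 3 without LPS replicate 1, LPS replicate 2 or untreated replicate 1, and 2 without LPS replicate 3 or with library totals, with Elob and Nedd8 among the calls lost. In macrophages none of the 7 was called by edgeR or DESeq2, and 1, Eloc, was lower at an unadjusted p below 0.05, with a log2 fold change of -0.37. Without shNC replicate 2 the list had 2 lower genes, and with library totals 1 higher gene.

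Of 15 regulators of Il10 transcription and mRNA, 6 rose and 3 fell in LPS liver. Nfil3 and Zfp36 are also in the list of response genes. The part of these 15 genes in the change of Il10 was not tested in either tissue. Map3k8, a kinase upstream of ERK, had a log2 fold change of 4.37, the transcription factor Prdm1 3.71, the NF-kB subunit Nfkb1 2.98 and the salt-inducible kinase Sik2 -2.40. In macrophages 4 of 15 fell and 1 rose. Zfp36 is given above, Map3k8 had -1.41, Nfkb1 -1.35, and Rps6ka4, which encodes the kinase MSK2, averaged 90.4 ± 2.36 CPM in shGm26917 and 161 ± 13.8 CPM in shNC macrophages, a log2 fold change of -0.83. Map3k8 lost the call without any 1 shGm26917 library, and Nfkb1 without shGm26917 replicate 2 or 3. The count of lower genes was 2, 1 and 1 without shGm26917 replicate 1, 2 and 3, and 8 without shNC replicate 2 or by DESeq2. The higher call was lost without shGm26917 replicate 1 or 2 or shNC replicate 1 or 3, and there were 2 without shNC replicate 2; with library totals 4 genes were higher and 2 lower.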

How the data were processed

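PolyA RNA was sequenced from 12 libraries in 4 groups of 3. The deposited values are raw counts of reads per gene, with no normalization, from the authors' alignment with STAR and counting with featureCounts 1.6.3 on mm10, per the submitters' processing notes; strand use, multi-mapping and the annotation: not given in the sources used here. The macrophage file headers hold the word combined, without saying what was combined. Library totals (15605311 to 20913964 reads) set the counting precision.

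Symbols and loci came from GENCODE M21 (GRCm38). Each tissue was fitted alone with edgeR 4.0.16 (R 4.3.3, limma 3.58.1): filterByExpr defaults, TMM factors, glmQLFit and glmQLFTest with group alone, and Benjamini-Hochberg adjustment over 13869 liver and 12876 macrophage genes, called below 0.05. Standard errors were taken as absolute log2 fold change over root F. Length means the union of exons. The fit was tested on simulated data with the same spread for all genes, no deviating library, and changes only in genes with many reads. That test thus did not cover changes in genes of few reads, such as Il10 in liver. Alternatives were library totals, RLE factors, DESeq2 1.42.0, no filter, 1 CPM in 3 libraries, a replicate block, all 12 libraries in 1 fit, each library left out, and the longest transcript as length. Beyond the 8 genes, the text names, per list and comparison, up to 4 called genes of largest absolute log2 fold change (otherwise the one of smallest p), and the 3 genes most like Socs3 and Il10 in liver (log2 CPM, prior count 2). The 8 genes and the lists were chosen with earlier results of these data known. Protein sequences were not used here, and 1 gene that this rule would name is not reported here.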

Additional observations from a re-analysis of the deposited data

How the results depend on the processing

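In liver the 8 genes were called higher under all 13 alternatives. Library totals in place of TMM shifted the median gene by -0.43 (log2) in liver and 0.29 in macrophages, and gave 1943 genes higher and 5305 lower in liver (3227 and 3060 with TMM), and 3135 higher and 794 lower in macrophages (1618 and 1431 with TMM). With 1 library left out, the macrophage counts ran from 479 to 2715 higher and from 360 to 2521 lower, and the liver counts from 2651 to 3237 higher and from 2187 to 2990 lower. Of the 8 genes, 1 was called higher in macrophages with library totals and 1 by DESeq2, and 0 to 1 with a library left out; the count of lower genes was 2 to 4 with a library left out. Il10rb in macrophages turned to 0.22 with library totals and ran from -0.16 to 0.07 with a library left out. With the longest transcript as length, 3 genes changed place in the order of levels in shGm26917 macrophages, 2 in shNC macrophages and 0 in either liver group. Overlaps between neighbours changed as well with that length. In LPS liver Socs1 overlapped Stat3, and in untreated liver Socs2 and Socs3 no longer overlapped. The causes of these shifts were not tested.

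Whether the replicate numbers pair the libraries cannot be settled from 3 libraries per group. Same-numbered libraries correlated at 0.12, 0.05 and -0.08 in liver and at -0.04, 0.24 and 0.18 in macrophages. Some libraries, but not all, correlated best with their own number. A replicate block gave 3002 higher and 2752 lower genes in liver and 1424 and 1170 in macrophages, and called 8 and 3 of the 8 genes; the count of lower IL-10 and STAT3 response genes in macrophages was 3 with the block (6 without), and that of lower STAT5 receptors and targets 0 (1 without). The 3 libraries per group limit what can be called, and Il10 rests on 4 reads in untreated liver and 36 in shGm26917 macrophages.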
